A study of Mus musculus with 2 samples.

Results

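Narrow H3K79me2 peaks were chosen by their width in the replicated list, which the authors derived from the 2 replicates together: a peak on chromosomes 1 to 19 or X counted when its end minus its start was under 1000 bp. Of the 15559 peaks in that list, 1798 (11.6%) were this narrow, and together they covered 1215249 bp, or 1.3% of the bases under the list. The narrow peaks were split by position into 1312 that lay within 5 kb of a peak of 1 kb or more, called fragments, and 486 that did not, called isolated. The other 13761 peaks are called wider peaks. The widths and the gaps that made these classes are measured values, so they are given as a description and support nothing.

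The list comes from histone ChIP-seq in macrophages derived from bone marrow of C57BL/6J mice and left without stimulation, which are primary cells grown from marrow progenitors. There were 2 biological replicates in 1 group, with 10 ng of starting DNA each and no other genotype, treatment or time. The labels give both the same donor identifier and record neither sex nor age, and whether separate animals or cultures were used is left unsaid. The spread between the replicates may therefore be technical. Of 10 macrophage marker genes, 10 held a wider peak, against 0 of 5 for each of the T and NK cell, B cell, neutrophil and fibroblast lists and 1 of 5 for the erythroid list.

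Dimethylation of histone H3 at lysine 79 is placed by the methyltransferase Dot1l inside the nucleosome core of transcribed genes. It spreads from shortly after the transcription start into the 5′ part of the gene body, and genes transcribed at a high rate tend to carry broad domains of it. Sites at the edges of such domains, or in genes transcribed at a low rate, carry less of it. The position of each narrow peak was described relative to wider peaks, to genes and to the annotated 5′ ends of transcripts.

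The 5 members below show the kinds of sequence that lay under isolated peaks. They are a gene body start in Cycs, a ribosomal protein gene in Rps29, another gene whose only peak was narrow in Arhgap9, an intron far from any start in Zdhhc14, and a place outside genes near Gm1966. Each stretch is read from the GRCm38 reference of RefSeq around the summit of the peak, leaves out annotated untranslated bases, and runs 5′ to 3′ on the named strand. Capitals mark CpG dinucleotides.
Cycs (chr6:50565361-50565660, minus strand): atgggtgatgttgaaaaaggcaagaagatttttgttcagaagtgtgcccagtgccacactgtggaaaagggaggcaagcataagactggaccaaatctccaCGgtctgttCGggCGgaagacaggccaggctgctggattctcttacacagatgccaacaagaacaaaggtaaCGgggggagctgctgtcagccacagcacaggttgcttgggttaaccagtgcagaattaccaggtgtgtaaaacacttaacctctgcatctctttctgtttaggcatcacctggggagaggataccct
Rps29 (chr12:69158142-69158441, minus strand): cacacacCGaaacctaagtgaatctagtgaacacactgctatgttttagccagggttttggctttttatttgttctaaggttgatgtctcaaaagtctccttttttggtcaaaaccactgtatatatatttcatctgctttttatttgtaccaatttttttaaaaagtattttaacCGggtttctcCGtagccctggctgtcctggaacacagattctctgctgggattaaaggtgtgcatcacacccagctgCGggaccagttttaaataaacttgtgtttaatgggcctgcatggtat
Arhgap9 (chr10:127324045-127324344, plus strand): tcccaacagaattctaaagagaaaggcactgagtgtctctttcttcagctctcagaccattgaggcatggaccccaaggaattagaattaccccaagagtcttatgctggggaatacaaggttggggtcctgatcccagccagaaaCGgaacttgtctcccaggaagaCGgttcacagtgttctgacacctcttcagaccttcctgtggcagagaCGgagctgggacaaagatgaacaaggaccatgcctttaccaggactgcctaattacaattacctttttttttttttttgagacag
Zdhhc14 (chr17:5614750-5615049, plus strand): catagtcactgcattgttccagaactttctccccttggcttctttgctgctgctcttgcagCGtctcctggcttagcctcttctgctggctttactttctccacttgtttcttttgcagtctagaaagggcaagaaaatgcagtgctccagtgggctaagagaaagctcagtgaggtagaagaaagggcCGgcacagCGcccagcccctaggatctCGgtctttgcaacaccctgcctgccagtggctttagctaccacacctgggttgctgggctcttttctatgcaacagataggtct
Outside genes, near Gm1966 (chr7:106617432-106617731, plus strand): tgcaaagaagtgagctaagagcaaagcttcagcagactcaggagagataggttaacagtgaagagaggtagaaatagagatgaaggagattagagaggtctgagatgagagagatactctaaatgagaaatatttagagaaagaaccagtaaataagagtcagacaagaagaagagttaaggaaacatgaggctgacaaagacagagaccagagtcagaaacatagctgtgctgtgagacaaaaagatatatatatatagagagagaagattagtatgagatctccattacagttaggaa
The Cycs stretch begins where the annotated 5′ untranslated region ends and opens with the start codon. It holds 4 CpG dinucleotides in 300 bases, as do the Rps29 and Zdhhc14 stretches, while Arhgap9 has 3 and the stretch near Gm1966 0. Over all isolated members, 2.26% of the 500 bp windows at peak midpoints reached an observed to expected CpG ratio of 0.6, against 3.66% of fragments and 0.785% of wider peaks. The median GC content was 43.4% in isolated peaks, 43.3% in fragments and 43.4% in wider peaks. Median GC content thus hardly separated the classes, while the small share of CpG-rich windows was higher in both narrow classes than in wider peaks.

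Narrow peaks were also low. The authors' fold over control, used here to rank peaks within 1 list, had a median of 3.18 in narrow peaks, with a range of 1.56 to 16.7, and of 8.38 in wider peaks. In the ranking by fold, 85.2% of narrow peaks stood in the lowest 25% of the list and 48 (2.67%) above its median, and 39.2% of that lowest part was narrow. Just inside the width limit were peaks of 999 bp in the long noncoding RNA gene Gm38399, with a fold of 3.67, and of 998 bp in the tyrosine kinase gene Fyn (fold 2.86) and in Mtif3 (fold 3.1). Just outside it were 3 peaks of 1000 bp in Ripk1 (fold 3.6), Smc5 (3.69) and Acvr2a (2.31). The folds on both sides of the limit overlapped. The 3 narrowest members measured 227 bp in Zhx3, 235 bp in Zbtb4 and 238 bp in Dnttip2.

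Fragments lie within 5 kb of a wider peak by definition, so only the spread of their gaps inside that limit is described. The median gap to the nearest wider peak was 465 bp, with quartiles at 160 and 1499 bp, and 388 of 1312 gaps (29.6%) were under 200 bp. Fragments by the same rule in the list of replicate 1 had a median gap of 650 bp and those in the list of replicate 2 had 546 bp. Isolated peaks, which lie beyond the limit by the same definition, had a median gap of 21294 bp. The distribution had no trough at 5 kb, so the limit divides a continuous range of gaps.

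**Figure D1:**
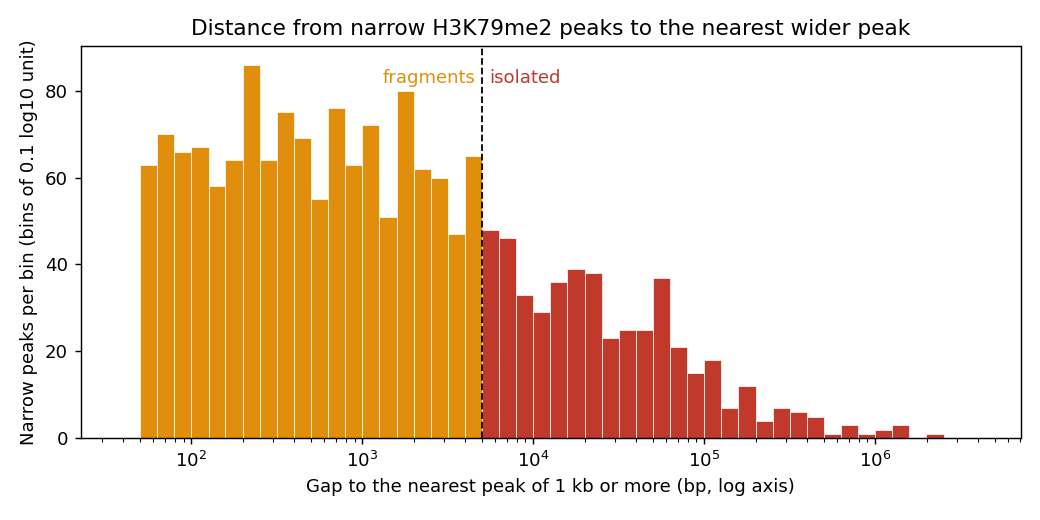
Gap in bp from each of the 1798 narrow peaks to the nearest peak of 1 kb or more, on a log axis, with the dashed line at 5 kb between fragments (orange) and isolated peaks (red). The counts stay level up to the line and fall beyond it, with no gap between the classes.

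Most fragments belonged to the same gene as their wider neighbour: 1185 of 1312 (90.3%) shared a protein-coding gene with it. In 727 (55.4%) the fragment lay downstream of the wider peak along that gene and in 429 (32.7%) upstream. The other 156 shared no gene or shared genes on both strands. A coding transcript began inside the gap in 43.6% of these 156, against 4.54% of the downstream and 7.23% of the upstream fragments. The last 2 classes require a gene shared across the gap, so this contrast follows in part from how the classes were made. Over all fragments the share was 10.1%, and in the gaps of at most 5 kb between neighbouring wider peaks it was 14.3%. Wider peaks lay on both sides of 439 fragments (33.5%). The wider neighbour had a median width of 3130 bp and a median fold of 6.02, and the fragment had the higher fold in 125 pairs (9.53%).

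The gaps were not mainly repeats. Their median repeat content was 25.1% of bases, against 18.3% in the fragments themselves and 24.4% in the 6553 gaps of at most 5 kb between neighbouring wider peaks. Gaps with at least 90% repeat made up 10.3% for fragments and 15% between wider peaks, and no gap held an unsequenced base. In the list of replicate 1, 1 peak joined fragment and neighbour in 16 cases (1.22%), and in that of replicate 2 in 146 cases (11.1%). Only a replicate with a peak at the fragment can join it to its neighbour. Replicate 1 had such a peak at 378 fragments (28.8%) and replicate 2 at 1002 (76.4%), so the 2 shares of all fragments are not like for like.

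Long genes collected fragments. The 932 coding genes with a fragment had a median length of 49335 bp. The median was 26423 bp in the 7271 genes with a wider peak and 17414 bp over all 21755 coding genes. A longer gene has more room for a peak of any class, which was not adjusted for. Cdk14, which encodes a cyclin-dependent kinase, held 17 fragments beside 32 wider peaks over 616922 bp, and the adhesion molecule gene Cadm1 held 14 beside 30 over 327465 bp. Pdlim5 followed with 9 fragments, Smad6 with 8, Gas7 with 7, and Dlg1, Peak1, Cdk6 and Gm20388 with 6 each. Gm20388 spans 4434882 bp and overlaps 73 other coding genes, so its count cannot be given to 1 gene. Fewest among the 10 genes, 1700025G04Rik had 5.

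The replicates did not break these genes alike. Cdk14 held 64 peaks in the list of replicate 1 and 57 in that of replicate 2, and Cadm1 held 53 and 44. Dlg1, a scaffold protein gene, held 1 peak in replicate 1 and 46 in replicate 2, 16 of them of 1 kb or more. In Smad6, the gene of an inhibitory SMAD protein, the replicated list had 3 wider peaks, 8 fragments and 2 isolated peaks with folds from 2.51 to 4.61. Replicate 1 had 1 wider peak there and replicate 2 had 2. The wider peak near the Smad6 start had nearly the same ends in both replicates, at 2628 and 2482 bp wide, whereas most narrow peaks of replicate 1 beyond it overlapped none of replicate 2.

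**Figure D2:**
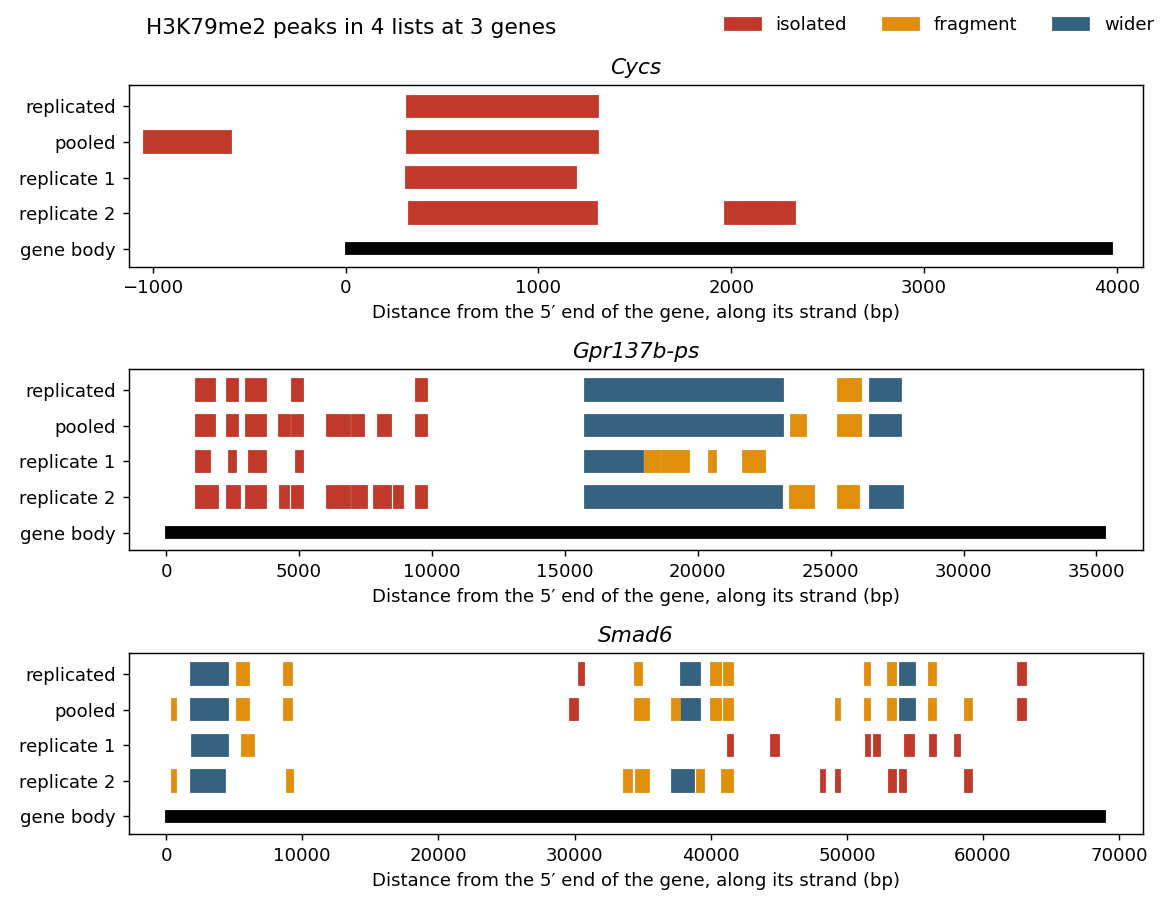
Peaks at Cycs, Gpr137b-ps and Smad6 in the replicated, pooled, replicate 1 and replicate 2 lists, drawn by distance in bp from the 5′ end of each gene and coloured by class within each list. Cycs has 1 narrow peak at nearly the same place in the 4 lists, while Smad6 has 13 peaks in the replicated list and 9 and 14 in the replicate lists.

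Few narrow peaks were found in both replicates on their own. Of the 1798, 376 (20.9%, 95% Wilson interval 19.1 to 22.9%, which covers counting error only) overlapped a peak of each replicate's list by at least 1 bp. Another 947 (52.7%) overlapped a peak of replicate 2 alone and 92 (5.12%) a peak of replicate 1 alone. The remaining 383 (21.3%) overlapped neither. Wider peaks were found in both lists in 81.7% of cases and in neither in 0.116%. Isolated peaks were found in both lists in 69 of 486 cases (14.2%) and in neither in 144 (29.6%), and fragments in 23.4% and 18.2%.

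Presence followed width. Both lists held 2.45% of members under 400 bp, 12.9% of those from 400 to under 600 bp, 24.8% from 600 to under 800 bp and 29.5% from 800 to under 1000 bp. Neither list held 65% of the narrowest class and 4.71% of the widest. The share in both lists was 54.5% for wider peaks under 2000 bp, a class that spans more widths than the others. A wider member has more bases for an overlap of 1 bp. The median fold also rose, from 2.71 under 400 bp to 3.52 from 800 to under 1000 bp. Whether width itself mattered was not tested. Where replicate 1 had a peak at a member, its widest peak there had a median of 494 bp, and 94.4% were under 1 kb. Replicate 2's had a median of 843 bp, and 67.6% were under 1 kb.

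**Figure D3:**
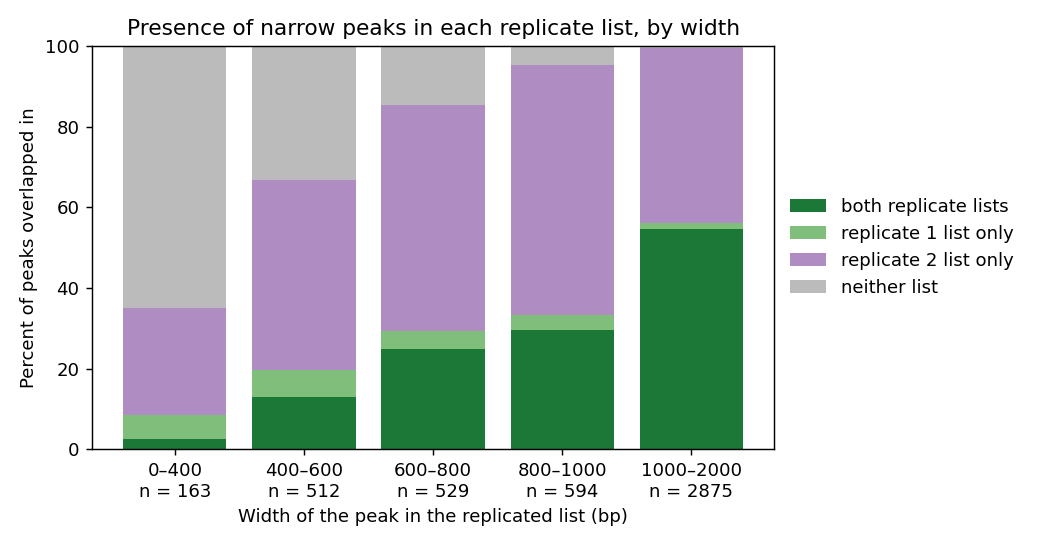
Percent of peaks of the replicated list that overlapped a peak in both replicate lists, in 1 of them or in neither, by width of the peak in bp. The share in both lists is 2.45% under 400 bp, 29.5% from 800 to under 1000 bp and 54.5% from 1000 to under 2000 bp.

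The list from pooled alignments treated the narrow peaks differently from the wider ones. It held 1452 narrow peaks with the same coordinates, and the other 346 (19.2%) overlapped no pooled peak at all. Of the wider peaks, 11 of 13761 (0.0799%) were missing in this way. The 346 had a median width of 483 bp and a median fold of 2.6, with a highest fold of 4.11, against 732 bp and 3.35 in the 1452. Of them, 235 (67.9%) also overlapped no peak in either replicate's list. The sources used here do not give the rule by which the replicated list was drawn, and what set these members apart was not tested.

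Isolated peaks clustered just downstream of transcription starts. The distance from a peak's midpoint to the nearest coding 5′ end lay between 500 and 1000 bp downstream in 72 of 486 isolated peaks (14.8%), in 6.94% of fragments and in 4.81% of wider peaks. In the lists of replicates 1 and 2 the shares were 12.6% and 7.07% of isolated peaks, and 4.78% of wider peaks in both. With any annotated 5′ end, 135 isolated peaks (27.8%) lay within 1 kb, against 23.6% of fragments and 15.8% of wider peaks. In the same order these shares were 25.7%, 15.2% and 14% in the list of replicate 1, and 19.1%, 17.6% and 15.3% in that of replicate 2. Isolated peaks far from starts were common too: 41.2% were over 10 kb from a coding 5′ end, against 37.5% of fragments and 28.8% of wider peaks. Isolated peaks and fragments had shares of 36.6% and 39% in the list of replicate 1, and of 44.8% and 40.6% in that of replicate 2. Their order thus differed between the replicates. A wider peak's midpoint moves downstream with its width, which these shares do not adjust for, and no test was made of the differences between the classes.

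**Figure D4:**
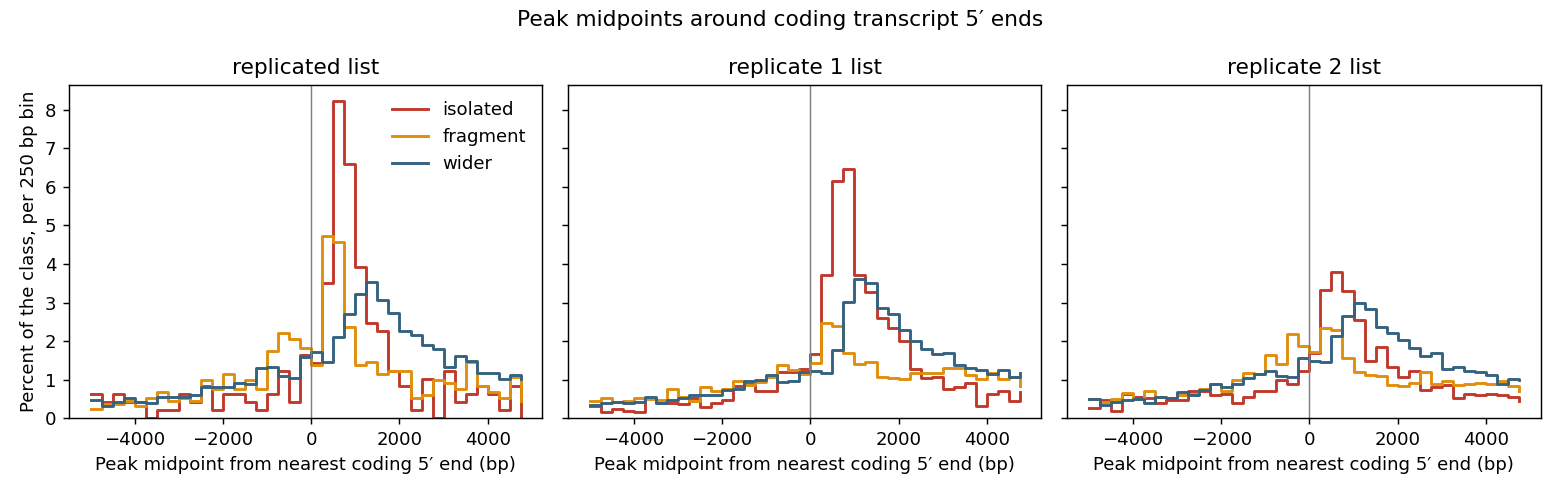
Percent of isolated peaks, fragments and wider peaks per 250 bp bin of signed distance in bp from the midpoint to the nearest coding 5′ end, in the replicated list and in each replicate's own list. Isolated peaks rise highest in the first 1000 bp downstream in each of the 3 panels, where their share from 500 to 1000 bp is 14.8%, 12.6% and 7.07%.

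Isolated peaks in coding genes fell into 2 kinds by their host gene. In 250 (51.4%) the peak lay in a coding gene that also held a wider peak. The 196 genes concerned had a median length of 115897.5 bp, the peak's midpoint was intronic in 97.2%, and its median distance from a coding 5′ end was 14843.5 bp. In 186 (38.3%) the peak lay in a coding gene without any wider peak, and 126 of these (67.7%) had their midpoint in the first 2 kb downstream of a coding 5′ end, against 18 (7.2%) of the first kind. The same split in the replicates' own lists gave 58.9% against 6.87% in replicate 1 and 57% against 6.53% in replicate 2, so the difference was larger than that between the replicates. The choice of members bears on this contrast, since in a gene with a wider peak near its start the 5 kb rule already keeps isolated peaks away from that start, and nothing is read from it. Peaks of the second kind were found in both replicate lists in 19.9% and in neither in 21%. For the first kind the shares were 6.4% and 38.8%.

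For a small set of genes the narrow peak was the only mark. Of 21755 coding genes, 7271 (33.4%) overlapped a wider peak and 215 (0.988%) overlapped narrow peaks alone, 181 of them isolated peaks alone. The 181 genes had a median length of 21710 bp, and 71.8% had a CpG-rich start, close to the 74.3% of genes with a wider peak and above the 29.3% of genes with no peak. Another coding gene overlapped 57 of the 181 (31.5%), against 29.5% of genes with a wider peak and 21.8% of all coding genes. At such genes the peak may lie in both. In 100 of the 181 (55.2%) the peak's midpoint lay within 1 kb of a 5′ end of that gene: 71 at 500 to 1000 bp downstream, 22 at 0 to 500 bp and 7 upstream. By replicate, 46 of the 181 had a peak in the list of replicate 1, 162 in that of replicate 2 and 14 in neither. In replicate 2, 79 (43.6%) had a peak of 1 kb or more, and in replicate 1 there was 1 such gene. Whether a gene stood in this set therefore turned on the list.

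Cycs encodes cytochrome c, the electron carrier of the respiratory chain that also triggers apoptosome assembly. Its gene (chr6:50562563-50566538, minus strand) is 3976 bp long, and the one peak in the replicated list spanned 989 bp (chr6:50565231-50566219) from 318 to 1307 bp after the gene's 5′ end. Replicate 1 had a peak of 884 bp with a fold of 6.2 there, and replicate 2 one of 975 bp with a fold of 10.3. The fold in the replicated list was 9.3. The start codon lay under the peak in both replicates, and no wider peak lay within 109595 bp.

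Rps29 encodes a protein of the small ribosomal subunit and is 1465 bp long (chr12:69157722-69159186, minus strand). Its peak spanned 838 bp with a fold of 7.62, and the replicates had peaks of 854 bp (fold 7.59) and 780 bp (fold 6.9). The peak lay inside the gene body. Thumpd1, whose product assists tRNA acetylation, had a peak of 929 bp with a fold of 7.12, and those of the replicates were 759 and 1010 bp wide. Its midpoint lay 609 bp downstream of the nearest annotated transcript start. This was close to the 658 bp of Trp53rkb and the 431 bp of Nprl3, a subunit gene of the GATOR1 complex that restrains mTORC1. At Trp53rkb that start lies inside the gene, downstream of its 5′ end.

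At other genes of this set the peak was narrower in replicate 1, or absent there, and broader in replicate 2. Arhgap9 had 492 bp in replicate 1 (fold 3.46) and 975 bp in replicate 2 (fold 8.78), 87 bp upstream of one of its annotated transcript starts. Trp53rkb had 443 and 1045 bp, and Nprl3 had 457 and 803 bp. Tradd, the adaptor of the tumour necrosis factor receptor, had no peak at this place in replicate 1 and 719 bp in replicate 2. Polb, which encodes the polymerase of base excision repair, had none in replicate 1 and 3266 bp in replicate 2. Ddx41 and Ndor1 also had none in replicate 1, and 933 and 1030 bp in replicate 2. Ndor1 overlaps 3 other coding genes and the midpoint of its peak lay 133 bp upstream of its start, so that peak cannot be given to Ndor1 alone. Echs1, an enzyme gene of fatty acid oxidation, was named for its fold and not for a peak at its start. It had an isolated peak of 756 bp with a fold of 7.87, no peak in replicate 1 and 2605 bp in replicate 2. The midpoint of that peak lay 1146 bp upstream of the nearest annotated transcript start, which is that of Paox.

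Among genes of macrophage function, 1 of the 6 lists described here held a gene with narrow peaks alone, against a background of 0.988% of coding genes at which few would be met in lists of this size. The gene lists were drawn up with earlier results of these data known. None of 32 macrophage transcription factor genes, 40 interferon-stimulated genes, 35 lysosome genes, 23 secondary inflammatory genes or 19 alternative activation genes was marked by narrow peaks alone. Wider peaks lay in 27, 30, 32, 4 and 4 of them, and 6 of the transcription factor genes (18.8%) held a fragment, against 4.28% of all coding genes. A fragment needs a wider peak within 5 kb, and 84.4% of the transcription factor genes held a wider peak, against 33.4% of all coding genes. The fragment shares are therefore not like for like, and nothing is read from them. Of 42 primary inflammatory genes 26 held a wider peak and 1, the chemokine gene Ccl3, a fragment alone. That fragment was 986 bp wide with a fold of 2.28, and replicate 1 had no peak there. It is also among the members with no pooled peak.

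Cell cycle and ribosomal protein genes gave more. Of 44 cell cycle genes 39 (88.6%) held a wider peak and 12 (27.3%) a fragment, against 33.4% and 4.28% of all coding genes. A fragment needs a wider peak within 5 kb, so nothing is read from that fragment share. Of the 44, 2 held isolated peaks alone. These were Ccne2, which encodes cyclin E2, and Rrm2, a subunit of ribonucleotide reductase. Rrm2 had peaks of 678 and 738 bp in the replicates and no wider peak within 265298 bp. The midpoint of its peak lay 607 bp downstream of one of its annotated transcript starts, which is not the 5′ end of the gene. Ccne2 had none in replicate 1 and 817 bp in replicate 2. Of 83 cytosolic ribosomal protein genes 76 held a wider peak and 4 (4.82%) narrow peaks alone, against the 0.988% over all coding genes: Rpl41 by a fragment, and Rps29, Rpl10a and Rps4x by isolated peaks. That 0.988% is taken over all coding genes, of which 65.6% held no peak, so the shares are not like for like. Ribosomal protein genes are short, between 1192 and 4454 bp in these 4, and processed copies of such genes are common in the genome. By the search for second copies described below, none of the 4 peak windows had one. That search aligns a 500 bp genomic window over at least 80% of its length. It can therefore miss processed copies, which lack introns. With 4 and 2 genes these shares rest on few members.

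Among 394 zinc finger genes named Zfp, 157 held a wider peak and 5 isolated peaks alone: Zfp687, Zfp59, Zfp963, Zfp219 and Zfp563. The share of 1.27% is near the background. The lists of 20 neutrophil, 20 fibroblast, 20 neuronal, 20 liver and muscle, 39 Hox and 110 keratin genes held no peak of any class. Of 27 T and NK cell, 18 B cell and 24 erythroid, megakaryocyte and mast cell genes, 2 in each held a wider peak, and none narrow peaks alone. Of 67 replication-dependent histone genes 5 held a wider peak and none narrow peaks alone. Of 1135 olfactory receptor genes 2 held a wider peak and none narrow peaks alone. Of these 2, Olfr56 also held an isolated peak, which lies in a duplicated segment described next.

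Isolated peaks stood more often in sequence that the genome holds more than once. A 500 bp window at the midpoint had a second copy, at 95% identity or more over at least 80% of its length, for 26 of 486 isolated peaks (5.35%), 38 fragments (2.9%) and 99 wider peaks (0.719%). Many of the 26 share a duplicated segment with others of them, as at the loci described below, so they are not independent. In the lists of replicates 1 and 2 the order was the same, with 1.35% and 3.96% of isolated peaks and 0.409% and 0.789% of wider peaks. The sources used here do not say how reads with several places were counted, and its part in these peaks was not tested.

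**Figure D5:**
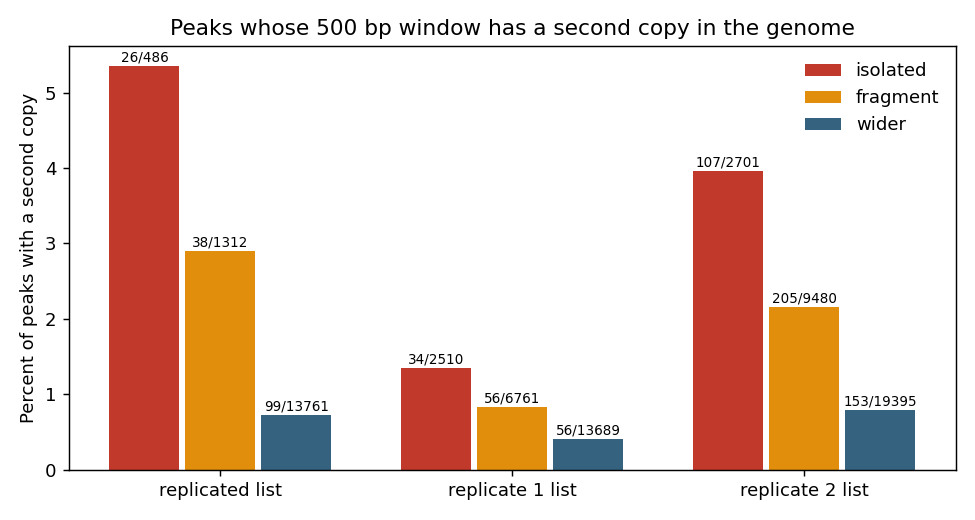
Percent of isolated peaks, fragments and wider peaks whose 500 bp midpoint window has a second copy on chromosomes 1 to 19, X or Y, in the replicated list and in each replicate's own list, with the counts above the bars. Isolated peaks stand at 5.35%, 1.35% and 3.96%, above wider peaks at 0.719%, 0.409% and 0.789%.

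The isolated peak with the highest fold in a coding gene was of this kind. It lay in 9930111J21Rik1 and the overlapping Gm12185 (chr11:48976784-48977533), with a fold of 10.6, and its window has a copy of 98.6% identity at chr11:49048750-49049250. Replicate 1 had 395 bp there with a fold of 5.11, and replicate 2 had 726 bp with a fold of 14.7. Of the isolated peaks in this gene pair, 6 had a second copy with identities of 98.6 to 99.6%, and their copies lay further along the same chromosome, between 49023261 and 49049250. An isolated peak of 635 bp in the overlapping 9930111J21Rik2 and Olfr56 was among these copies, at 99.4% identity to its mate.

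Gpr137b-ps, a transcribed pseudogene, held the highest fold of all isolated peaks and was chosen after its values were seen. The peak (chr13:12648552-12649273) had a fold of 11.4 over 722 bp, with 529 bp and a fold of 7.13 in replicate 1 and 843 bp and a fold of 15.2 in replicate 2. The replicated list has 5 isolated peaks between 1114 and 9805 bp from its 5′ end and then a wider peak of 7433 bp. Replicate 1 had 4 isolated peaks there and replicate 2 had 10. Of the 5, 4 had a second copy, at 96.1 to 99.6% identity, and the peak with the highest fold had none. The parent gene Gpr137b had an isolated peak of 594 bp, with peaks of 293 and 680 bp in the replicates. Its place matched that of another of the 5, the peak of 766 bp with a fold of 10.1.

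The members farthest from any 5′ end lay in introns of long genes. In Zdhhc14, a palmitoyltransferase gene, the peak was 122314 bp from the nearest 5′ end (chr17:5614400-5615342), with a fold of 4.11, no peak in replicate 1 and 1928 bp in replicate 2. The peak in Cadm1 was 108464 bp from one and was found in neither replicate's list nor in the pooled list. Those in Pde4d, a cyclic AMP phosphodiesterase gene, in Nsmce2 and in Myo1e were 80581, 75190, 73390 and 69259 bp away, 2 of them in Nsmce2. Replicate 1 had no peak at any of the 6, and replicate 2 had one at 5, from 673 to 3130 bp wide. These 6 were thus seen in replicate 2 where they were seen at all.

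Outside coding genes lay 50 isolated peaks (10.3%), 36 of them in another annotated gene and 14 in none. Of these 50, 32% were found in both replicate lists. Of the 14, 12 lay over 5 kb from any 5′ end. The highest fold among the 12 was 4.86, at chr7:106617274-106617944, which is 13574 bp from the pseudogene Gm1966 and has a copy of 96.4% identity on chromosome 14. The next was 3.77 at chr17:17005471-17006093, 32872 bp from BC002059, in sequence that is 82.8% repeat. The other 4 of the 6 highest lay 6938 bp from Olfr111, 9342 bp from Tekt3, 19747 bp from Rd3 and 48111 bp from Lrrc8d, with folds of 3.27 to 3.52. Replicate 1 had no peak at any of these 6, and replicate 2 had one of 390 to 976 bp at each.

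Another narrow peak lay within 5 kb of 135 isolated peaks (27.8%) and 386 fragments (29.4%), up to 4 of them. The same share was not computed for wider peaks, and neighbouring members may not be independent of each other.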

How the data were processed

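H3K79me2 ChIP-seq peaks of unstimulated bone-marrow-derived macrophages were used, from 2 replicates in 1 group. Per the deposited text notes, the lists are on mm10 (GRCm38) and comprise 1 list per replicate, 1 from pooled alignments and 1 replicated list. The sources used here name no aligner, peak caller or threshold. The deposited fold of each peak over the control is a ratio made by the authors. The deposited −log10 q is theirs too and served as a filter only. The files hold no read counts, so depth is unknown.

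Classes, gaps and overlaps (1 bp or more) were computed with Python 3.11.15, numpy 2.4.6, pandas 2.3.3 and pysam 0.24.0. Genes came from GENCODE M21 and sequence from the RefSeq FASTA. Distances ran from the midpoint of a peak. A start was CpG-rich when the sequence within 500 bp of it reached a GC content of 50% and a CpG ratio, observed over expected, of 0.6. Second copies were sought with minimap2 2.31. Interval and copy code was tested on simulated data.

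The members and gene lists were chosen with earlier results of these data known. Named members followed a rule: the 10 isolated peaks in coding genes of highest fold, the 10 genes with most fragments, the 10 highest among genes with an isolated peak alone at their start, the 6 farthest from a 5′ end, the 6 highest outside genes, the 3 narrowest, the 3 on each side of the limit and list genes with narrow peaks alone. Some of the sequences that the rule takes are not reported here. No chance test was made. Alternatives were other widths and distances, other lists, a q filter, merged peaks and other gene rules.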

Additional observations from a re-analysis of the deposited data

How the results depend on the processing

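Of 65 alternative values, 26 stayed within the spread allowed and 39 moved. Spread meant 1.5 times for counts, the SD of the values in the replicates' own lists for shares and gaps, and the Wilson interval for presence. A q of 0.05 or less and merging moved none of the results they were tried on. With widths below 500 and 2000 bp, the number of narrow peaks was 415 and 4673, the share within 5 kb of a wider peak 77.8% and 59.2%, presence in both lists 9.16% and 41.6%, isolated peaks within 1 kb of a 5′ end 12% and 35.2%, isolated peaks in a coding gene 91.3% and 93.8%, and genes with isolated peaks alone 24 and 947. The median gap of fragments became 622 bp below 2000 bp. In the pooled list there were 8713 narrow peaks, 78.8% of them within 5 kb, 4.27% present in both lists, 92.2% of isolated ones in a coding gene and 485 genes with isolated peaks alone.

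Leaving out replicate 1 or 2, which means using the other's list, gave 9271 to 12181 narrow peaks, 72.9% to 77.8% within 5 kb, 19.1% to 25.7% near a 5′ end, 93.1% to 95.2% in a coding gene, gaps of 546 to 650 bp, and 513 to 814 genes. With 2 kb and 10 kb in place of 5 kb, 60.2% and 80.1% of narrow peaks were fragments, and the median gap within 10 kb was 602 bp. Covering at least 50% of the peak in each list lowered presence to 15.7%. Within 500 bp and 2 kb of a 5′ end lay 9.67% and 42.6% of isolated peaks, and 97.1% overlapped any annotated gene.

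Some alternatives were added after seeing the data. Without narrow peaks that the pooled list lacks, presence was 25.3%, 34.1% of isolated peaks lay near a 5′ end and 88.2% in a coding gene. Without peaks that have a second copy, 91.5% lay in a coding gene. The causes were not tested. No paired analysis was possible because the replicates form 1 group. Each list from 1 replicate had over 5 times as many narrow peaks as the replicated list. With 2 replicates of unknown depth, absence from replicate 1's list does not show absence of the mark.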
